A study of Mus musculus with 18 samples.

Results

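The cytosolic chaperonin, also called TRiC or CCT, is described here through the 9 genes that encode its ring subunits: Tcp1, Cct2, Cct3, Cct4, Cct5, Cct6a, Cct6b, Cct7 and Cct8. They were found by symbol among the 22298 genes of the mRNA table, and all 9 were present and passed the filter on low counts. The set was chosen by the measured counts of Tcp1, which were lower in the Taf7l knock-in, in order to compare it with its ring partners. The difference in Tcp1 is therefore given as a description. The 8 partners were taken for their place in the ring, though with earlier results of these data known.

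Total RNA from frozen whole testes of C57BL/6 mice was sequenced in 3 libraries labelled wild type and 3 labelled Taf7l konckin (TKI), read here as knock-in. Taf7l is an X-linked gene active in germ cells, and its protein resembles TAF7 of the basal transcription machinery. The series title concerns a missense mutation of this gene, and the labels do not say which change the allele carries, how old the mice were or whether libraries came from separate animals. P-values thus measure the spread between libraries, part of which may be technical. The other 12 samples of the series, sorted germ cells at the pachytene and round spermatid stages, were not analysed here.

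The chaperonin is a pair of stacked rings in which every position is held by a different subunit, so a ring needs each of them once. It encloses newly made proteins and folds them with the energy of ATP, and actins and tubulins are its best known clients. Prefoldin hands such clients to it, and phosducin-like proteins assist it. Testis makes large amounts of tubulin for the meiotic spindle, the manchette and the flagellum, and it has a second form of the zeta subunit, encoded by Cct6b. Around the ring, Tcp1 (alpha) sits between Cct3 (gamma) and Cct4 (delta), and Cct2 (beta), Cct5 (epsilon), Cct7 (eta), Cct8 (theta) and Cct6 (zeta) complete the circle.

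The mRNA libraries held 17431309 to 21446420 counts each. The 9 genes together took 0.412% ± 0.00584 of the mRNA counts for wild type, against 0.378% ± 0.0124 for knock-in (mean with SD over 3 libraries, as in all such pairs here). This sum includes Tcp1, which was chosen for its fall, so the difference does not describe the partners. Germ cell and somatic markers of testis were present, and none of the 8 marker lists held a gene at 0 in every library. Taf7l itself had 29.0 ± 1.25 CPM for wild type, against 26.8 ± 0.745 for knock-in. CPM here means counts relative to the library total after TMM scaling. A knock-in allele need not change the amount of its transcript, so the labels cannot be checked this way.

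The Tcp1 gene lies on chromosome 17 from 12916329 to 12925067 (plus strand, mm10), in the region of the t complex that gave it its name. In the RefSeq promoter table its start faces a start of Mrpl18, a gene for a protein of the large mitochondrial ribosomal subunit on the other strand. That Mrpl18 start is at 12916091, and 237 bases lie between it and the Tcp1 start. The whole Mrpl18 gene record reaches further, to 12917787, and overlaps the Tcp1 record by 1459 bases. Mrpl18 had a log2 fold change of 0.04. The stretch between the paired starts is shown for this reason (chr17:12916092-12916328, plus strand, GRCm38.p6, 60.3% G and C). The 250 bases before the start of Cct7, the partner closest to Tcp1 in abundance, are shown for comparison (chr6:85451255-85451504, plus strand, 66.4% G and C). Capitals mark the core of the CCAAT box, the core of the GC box (GGGCGG) and that of the ETS site (CCGGAA), on either strand.
Tcp1: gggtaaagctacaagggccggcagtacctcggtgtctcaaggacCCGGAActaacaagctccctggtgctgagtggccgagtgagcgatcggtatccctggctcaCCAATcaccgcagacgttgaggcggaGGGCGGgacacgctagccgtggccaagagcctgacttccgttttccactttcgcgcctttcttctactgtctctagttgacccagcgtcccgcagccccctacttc
Cct7: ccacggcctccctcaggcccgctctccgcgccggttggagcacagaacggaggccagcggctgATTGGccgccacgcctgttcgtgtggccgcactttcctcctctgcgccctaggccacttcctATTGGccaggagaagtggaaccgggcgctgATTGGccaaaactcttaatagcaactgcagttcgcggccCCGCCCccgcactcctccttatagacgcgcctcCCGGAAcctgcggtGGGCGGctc

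RefSeq promoter windows, 250 bases before to 50 after a start, were found for 8 of the 9 genes, 10 windows in all, and none for Cct4. CCAAT was present in 5 of these windows (Tcp1, Cct3, Cct6a, Cct6b and Cct7), against 37.4% of 32851 promoter windows. GGGCGG was present in 8, against 35.7%, and CCGGAA in 6 (in Tcp1, Cct2, Cct5, Cct6b, Cct7 and Cct8), against 14.9%. TATAAA was in none of the 10, against 13.6% of all windows. Of the paired heat shock element units, TTCNNGAA was in 2 windows (Cct5 and Cct6a), against 8.52% of all. The other arrangement, GAANNTTC, was in 1 window (Cct2), against 7.86%. These are matches of letters on both strands, may overlap, and are not measured binding. In the Tcp1 window the CCAAT letters lay at -132 from the start. The GC box letters lay at -106 and 22, and the ETS letters at -193 and -3, the last across the start. Tcp1 and Cct7 thus hold the same 3 motifs, and the Tcp1 window held none that no partner had.

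Per transcript length, Tcp1 was the highest of the 9 genes in the wild type, with 300.74, 301.18 and 296.43 FPKM as deposited. It was at 203.5, 165.02 and 210.66 FPKM in the knock-in, where it was the third. All 3 knock-in libraries lay below all wild-type libraries, and knock-in library 2 was the lowest. The transcript length behind these FPKM values, obtained as counts over FPKM, also differed, with means of 2614 bases for wild type and 2716 for knock-in. Cct7 had 299.04, 287.84 and 292.23 FPKM for wild type, against 296.76, 283.89 and 286.58 for knock-in. In the wild type the Tcp1 and Cct7 ranges overlapped, and in the knock-in the Tcp1 range overlapped that of Cct3 instead.

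Below them in the wild type came Cct5 (mean 218.8 FPKM), Cct3 (187.6), Cct4 (181.1), Cct2 (153.0), Cct6b (124.4), Cct6a (96.7) and Cct8 (93.2). Of the neighbours in this order, Cct3 and Cct4 overlapped between libraries, as did Cct6a and Cct8. In the knock-in the order was Cct7, Cct5, Tcp1, Cct3, Cct4, Cct2, Cct6b, Cct8 and Cct6a. There the pairs Tcp1 and Cct3, Cct4 and Cct2, and Cct8 and Cct6a overlapped. The zeta position is served by a pair of genes, whose summed level was 221 ± 5.24 FPKM for wild type, against 194 ± 12.8 for knock-in. Cct6b, the testis form, made up 56.3% ± 1.86 of that sum for wild type, against 56.6% ± 1.70 for knock-in. Sum and share depend on the deposited FPKM of Cct6a, whose mean transcript length was 1525 bases for wild type, against 1646 for knock-in. How reads shared with noncoding transcripts of Cct6a were counted is not given. Tcp1 made up 18.2% ± 0.433 of the summed FPKM of the 9 genes for wild type, against 12.9% ± 1.30 for knock-in. In whole testis, fewer cells of a type and less RNA per cell cannot be told apart.

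**Figure D1:**
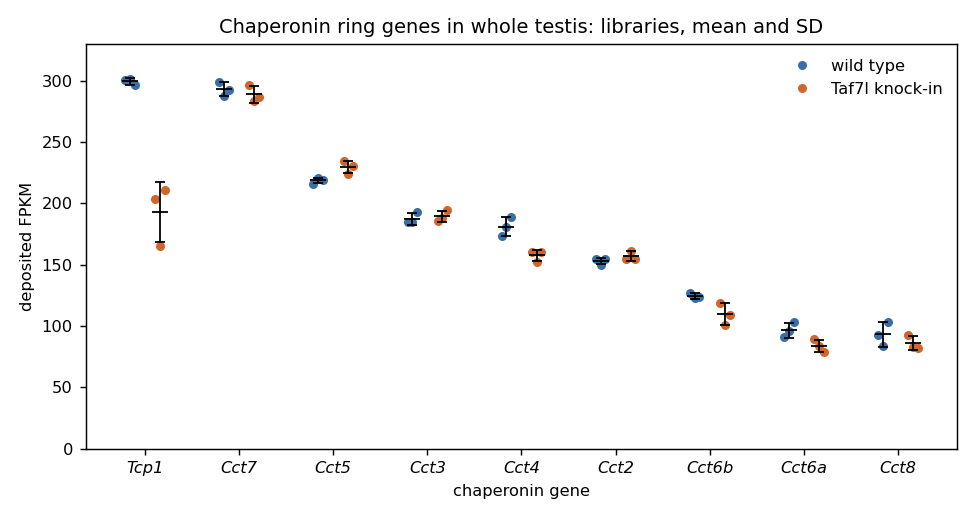
Deposited FPKM (vertical axis, from 0) of the 9 chaperonin genes (horizontal axis, ordered by wild-type mean) in 3 wild-type and 3 knock-in libraries of whole testis, with points for libraries and bars for mean and SD. Tcp1 stands at 296.43 to 301.18 for wild type, against 165.02 to 210.66 for knock-in, while Cct7 stays between 283.89 and 299.04 in all 6 libraries.

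On the CPM scale Tcp1 was at 809, 770 and 765 for wild type, against 565, 440 and 575 for knock-in. The groups did not overlap, and the log2 fold change of -0.57 had a 95% interval from -0.78 to -0.36. Of the tested genes, 0.101% were called lower and 0.982% changed in either direction at an adjusted p under 0.05 (edgeR), and Tcp1, chosen for its fall, was the only member among them. Its adjusted p was above the threshold when wild-type library 1, 2 or 3 or knock-in library 3 was left out, at 0.0938, 0.0977, 0.0994 and 0.0950 in the edgeR fits. The fold change stayed between -0.64 and -0.45 in the 6 fits without 1 library, the smallest being that without knock-in library 2. RefSeq lists a pseudogene, Tcp1-ps1, on chromosome 4 from 68301245 to 68303379, and Cct3 has one too (Cct3-ps1). How reads shared with them were counted is not given.

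None of the 8 partners was called changed by edgeR, and 1 of them, Cct4, had an unadjusted p under 0.05, against 12.9% of all genes tested. The DESeq2 test called 1 partner, again Cct4, and 4.11% of the 10961 genes to which it gave an adjusted p. The median log2 fold change of the partners was -0.05, beside 0.00 over all 15787 genes tested, and their values ran from -0.21 to 0.10. In CPM, 2 of the 8 partners, Cct4 and Cct6a, had knock-in libraries that all lay below the wild-type ones, against 8.41% of all genes tested. No partner lay above without overlap.

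Cct4, the neighbour of Tcp1 in the ring, was at 505, 491 and 524 CPM for wild type, against 458, 416 and 441 for knock-in. The genotypes did not overlap, and knock-in library 2 was again the lowest. The log2 fold change was -0.21 ± 0.06 (SE), and its interval ran from -0.34 to -0.08, without passing the threshold (edgeR, adjusted p = 0.153). With DESeq2 the value was -0.21 and it passed (adjusted p = 0.0281). The authors' deposited table lists Cct4 at a log2 ratio of -0.20 with an adjusted p of 0.02828, and 2% of its genes are under 0.05. Its adjusted p-values lie close to those of DESeq2, as for Cct5 (0.5794 deposited, 0.578 with DESeq2). The deposited call of Cct4 is therefore not taken as separate from the DESeq2 call. Cct4 is thus the partner whose call depends on the test used.

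Cct3, the other neighbour of Tcp1, was at 484, 461 and 488 CPM for wild type, against 486, 470 and 502 for knock-in. The groups overlapped and the log2 fold change of 0.03 had an interval from -0.10 to 0.15. Cct2 was at 389, 364 and 382 CPM for wild type, against 398, 386 and 389 for knock-in, which overlapped (log2 0.05, from -0.07 to 0.17). Cct7 was at 833, 767 and 798 CPM for wild type, against 834, 749 and 798 for knock-in, nearly the same range (log2 -0.01, from -0.15 to 0.13). Cct5, which like Tcp1, Cct2 and Cct4 is a subunit of strong ATP binding, was at 509, 490 and 502 CPM for wild type, against 555, 507 and 542 for knock-in. Its log2 fold change of 0.10 (-0.03 to 0.22) was the highest of the ring, and it did not pass (edgeR, adjusted p = 0.529). In the fits without 1 library it ran from 0.06 (without knock-in library 1) to 0.13 (without knock-in library 2). In FPKM the Cct5 libraries did not overlap, with 216.2 to 220.72 for wild type, against 224.41 to 234.39 for knock-in, and in CPM they did. The share of all genes that separate in FPKM was not counted, so whether this is unusual is not known.

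The zeta gene Cct6b was at 305, 280 and 288 CPM for wild type, against 286, 232 and 259 for knock-in. The groups overlapped through knock-in library 1, and the log2 fold change of -0.17 had an interval from -0.34 to 0.00. In the fits without 1 library it ran from -0.25 (without knock-in library 1) to -0.10 (without knock-in library 2). In FPKM, with 122.55 to 126.89 for wild type and 101.1 to 119.17 for knock-in, they did not overlap, and no share over all genes was counted for FPKM. Its widely expressed relative Cct6a was at 145, 144 and 152 CPM for wild type, against 141, 135 and 140 for knock-in, a log2 fold change of -0.09 (-0.21 to 0.03). On the log2(FPKM + 0.1) scale Cct6a had -0.20 (limma, adjusted p = 0.198). Cct8 was at 237, 222 and 252 CPM for wild type, against 231, 215 and 219 for knock-in, and overlapped (log2 -0.10, from -0.24 to 0.04). Cct8 had -0.14 without wild-type library 2 and -0.05 without wild-type library 3, the ends of its range without 1 library. None of these 3 genes passed (edgeR, adjusted p = 0.400 for Cct6b, 0.560 for Cct6a and 0.577 for Cct8).

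**Figure D2:**
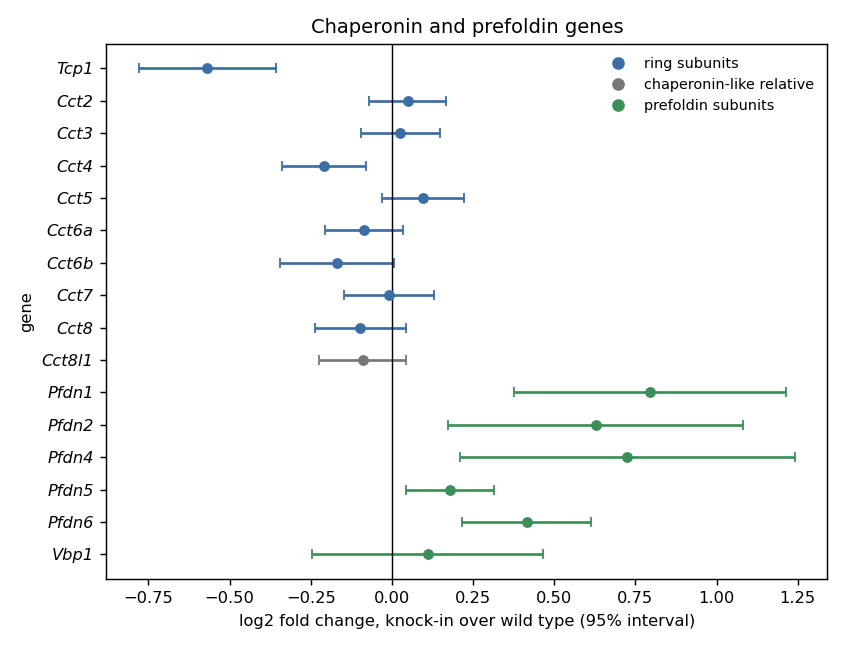
Log2 fold change of the knock-in over the wild type (horizontal axis, points with 95% intervals from the edgeR fit) for the 9 ring subunits, the chaperonin-like Cct8l1 and the 6 prefoldin subunits (vertical axis). Tcp1 lies at -0.57, the 8 ring partners between -0.21 and 0.10, and the prefoldin genes between 0.11 and 0.80.

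Within each library, the log2 CPM of Tcp1 exceeded the mean of its 8 partners by 1.10, 1.10 and 1.01 in the wild type. The excess was 0.60, 0.36 and 0.67 in the knock-in. The mean difference between the genotypes was -0.53, and no knock-in library reached a wild-type one, which is a description, since Tcp1 was chosen for its fall. The partners' mean log2 CPM was 8.57, 8.49 and 8.57 for wild type, against 8.55, 8.42 and 8.50 for knock-in, so that it overlapped between genotypes. Knock-in library 2 was the lowest of the 6 in Tcp1, Cct4, Cct6a, Cct6b, Cct7 and Cct8.

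**Figure D3:**
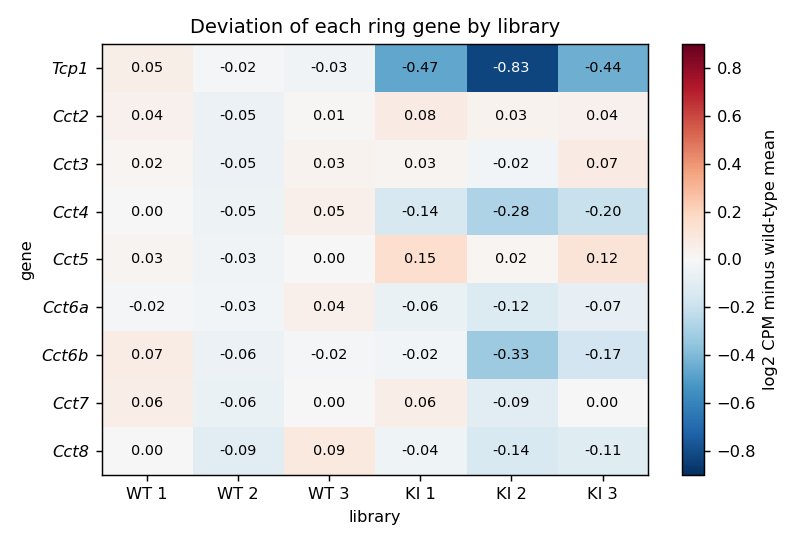
Log2 CPM of each ring gene (rows) in each library (columns) minus that gene's wild-type mean, as colour and printed value. Tcp1 is at -0.47, -0.83 and -0.44 in the knock-in libraries, and no partner goes below the -0.33 of Cct6b in knock-in library 2.

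The 5 genes whose log2 CPM was most like that of Tcp1 over the 6 libraries were Rhot1 (Pearson r = 0.995), Wdr11 (0.989), Jagn1 (0.988), Cdk19 (0.985) and Eml4 (0.984), out of 9173 genes compared. Their log2 fold changes were smaller than that of Tcp1, from -0.14 for Rhot1 to -0.30 for Jagn1, and none passed the test (edgeR, adjusted p from 0.142 to 0.328). Of the ring partners Cct4 was the most like Tcp1 (r = 0.949, place 87), followed by Cct6a (0.875) and Cct6b (0.866). Cct2 and Cct5 ran the other way (r = -0.437 and -0.440). The points are 2 groups of 3 libraries, so these values follow mainly the difference between genotypes, and they describe likeness only.

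The shared start region of Tcp1 was set against its neighbours. Mrpl18 was at 21.3, 21.3 and 23.4 CPM for wild type, against 22.0, 21.9 and 23.9 for knock-in. The libraries overlapped and the log2 fold change of 0.04 had an interval from -0.16 to 0.24. On the other side, the Acat3 record begins inside the last 1238 bases of the Tcp1 record, and Acat3 was at 4.83 ± 1.5 CPM for wild type, against 5.85 ± 2.34 for knock-in. None of 8 genes around Tcp1 was called, beside 0.982% of all genes tested. Nor did any separate the genotypes, beside 18.5% of all genes tested, and their median log2 fold change was 0.00. Mrpl18 and Acat3 are much less abundant than Tcp1, and whether counting used the strand is not given, so reads of overlapping records cannot be told apart.

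Noncoding transcripts and circular RNAs of the chaperonin loci were also counted. The noncoding table lists 7 transcripts under a symbol of the ring, 2 of them, both of Cct6a, abundant enough to be tested. Of all noncoding transcripts tested, 0.0968% were called by edgeR, and neither of these was. The Cct6a transcript ENSMUST00000201414 had 1376, 1262 and 1136 counts for wild type, against 1323, 1306 and 1688 for knock-in, and the libraries overlapped. The Cct6a transcript ENSMUST00000201927 had 202, 205 and 219 counts for wild type, against 191, 159 and 159 for knock-in. Those groups did not overlap, as for 16% of all tested transcripts, 7.62% being lower in the knock-in. Its log2 fold change of -0.38 ± 0.14 (SE) did not pass (edgeR, adjusted p = 0.485). The noncoding transcript of Tcp1 (ENSMUST00000147724) had 11 counts over all 6 libraries, that of Cct2 41 and that of Cct4 25.

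Circular RNAs, in which the ends of a spliced stretch are joined, came from 3 of the 9 genes: 4 circles from Cct6b, 3 from Tcp1 and 1 from Cct8. The most counted Tcp1 circle (mm10 chromosome 17 from 12922642 to 12923314, 188 bases of exon sequence) had 5, 6 and 4 counts for wild type, against 1, 2 and 3 for knock-in. It spans Snora20, a small nucleolar RNA gene inside Tcp1. The groups did not overlap, as for 10.7% of tested circles, 4.97% being lower in the knock-in. The log2 fold change of -1.45 ± 0.92 (SE) did not pass (edgeR, adjusted p = 0.979). Another Tcp1 circle had 1 count for wild type, against 4 for knock-in, and the third had 0 and 3. All Tcp1 circles together had 16 counts for wild type, against 13 for knock-in.

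The most counted circle of Cct6b (chromosome 11 from 82719272 to 82742120, 1072 bases) had 1, 2 and 6 counts for wild type, against 4, 5 and 9 for knock-in, and these overlapped. The 4 Cct6b circles together had 19 raw counts for wild type, against 34 for knock-in, without scaling for library depth. None of them passed (edgeR, adjusted p = 0.979 for each). The linear transcript had a log2 fold change of -0.17, and whether circles and linear transcript differ in direction was not tested. Of all 3887 circles tested, 0% were called by edgeR, 191 (4.91%) had an unadjusted p under 0.05, and DESeq2 called 0. Libraries held 14381 to 20127 circular RNA counts. None of the 6 chaperonin circles tested was called, which at this depth does not show that they were unchanged. The other 2 circles were too rare to test.

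**Figure D4:**
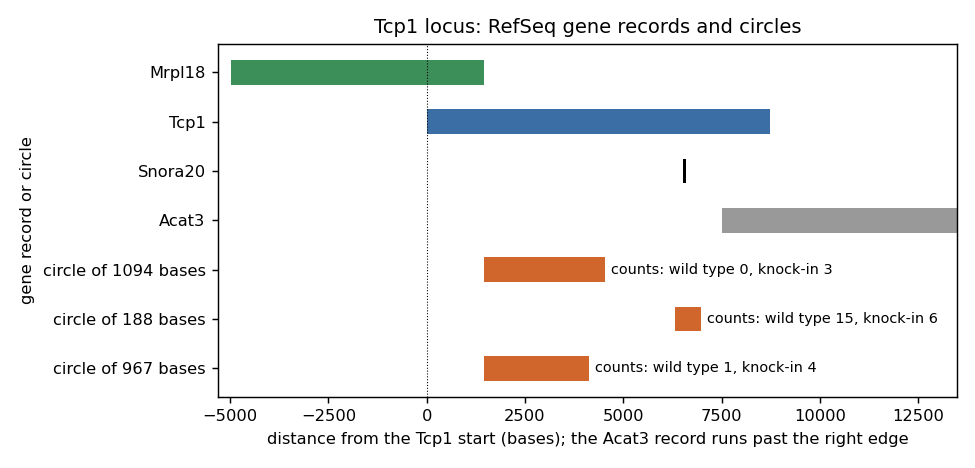
Map of the Tcp1 locus with distance in bases from the Tcp1 start (horizontal axis) for RefSeq gene records and the 3 Tcp1 circles (vertical axis), with circle counts summed over 3 libraries of each genotype. The 188-base circle over Snora20 has 15 counts for wild type, against 6 for knock-in, and the Mrpl18 record reaches across the Tcp1 start.

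Among the proteins that work with the ring, the 6 prefoldin genes all had a log2 fold change above 0 (49.4% of all genes were below 0), from 0.11 to 0.80 with a median of 0.52, and none passed the test over all genes. Pfdn6 was at 23.1, 20.1 and 22.1 CPM for wild type, against 28.1, 29.2 and 29.7 for knock-in, which is 0.42 ± 0.09 on the log2 scale (SE; edgeR, adjusted p = 0.0676). Pfdn5, the most abundant, was at 230, 216 and 209 CPM for wild type, against 254, 234 and 254 for knock-in (log2 0.18 ± 0.06, adjusted p = 0.249). For 5 of the 6, all but Vbp1, the genotypes did not overlap, against 18.5% of all genes in either direction. The list was chosen with earlier results of these data known, so these counts are a description. Pfdn2 had a log2 fold change of 0.63 ± 0.20 at a level of 6.55 CPM in the wild type. Dividing counts by FPKM gives the transcript length behind the deposited values, and its median was 1078 bases for prefoldin against 3050 for tested genes and 2554 for the ring genes. With the trend of fold change over length removed, their median was 0.37 and again none passed.

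The phosducin-like cochaperones held no called gene among 4 (median log2 fold change 0.07), beside 0.982% called of all genes tested. The germ-cell form Pdcl2 was at 270, 252 and 274 CPM for wild type, against 262, 197 and 230 for knock-in. Its groups overlapped, and its log2 fold change was -0.21 ± 0.09 (SE; edgeR, adjusted p = 0.383). Pdcl had 0.22 ± 0.12 and Txndc9 -0.09 ± 0.07. The prefoldin-like and R2TP group, an assembly platform for large complexes, had a median of 0.13 over 8 measured members (0.07 with the length trend removed) and none called, with Uri1 at 0.18 ± 0.06, the ATPase Ruvbl2 at 0.25 ± 0.09 and Pih1d1 at 0.11 ± 0.07. Of the 4 chaperonin-like relatives, Mkks, Bbs10 and Bbs12 of the complex that builds the BBSome and the testis gene Cct8l1, all had a log2 fold change below 0 (median -0.22) and none passed. Bbs12 had -0.31 ± 0.15, Bbs10 -0.23 ± 0.12 and Cct8l1 -0.09 ± 0.06. The mitochondrial chaperonin genes Hspd1 and Hspe1 had 0.23 ± 0.09 and 0.06 ± 0.12 and did not pass, and 1 of the 2 lay above 0 with the length trend removed.

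Transcripts of the ring's clients held no called gene, beside 0.982% called of all genes tested. Of 16 tubulins tested, 7 lay above 0 and 9 below, with a median of -0.02. Tubb4b was at 2390 ± 99.9 CPM for wild type, against 2364 ± 112 for knock-in, a log2 fold change of -0.02 ± 0.06 (SE). The testis alpha tubulins Tuba3a and Tuba3b had 0.02 ± 0.06 and 0.02 ± 0.06, and as close copies their single values are uncertain. The list of tubulin folding cofactors and related genes had a median of -0.04 over 7 genes (-0.08 with the length trend removed). Some of these cofactors take over tubulins from the ring. Tbcel was at -0.12 ± 0.06, Tbcb at 0.16 ± 0.06 and Tbca at 0.12 ± 0.09. All 4 tested actins lay above 0 (median 0.11), and 3 of 4 with the length trend removed: Actb had 0.22 ± 0.06 (edgeR, adjusted p = 0.144), Actg2 0.04 ± 0.06 and Actg1 0.01 ± 0.06. The other clients, WD-repeat proteins among them, had a median of -0.01 over 18 genes, with the mitotic activator Cdc20 at 0.05 ± 0.06 and the G-protein subunits Gnb1 and Gnb2 at -0.09 ± 0.05 and -0.13 ± 0.05.

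Beside these values, marker genes of 8 testis cell types were read in the same fit, in which 0.88% of all genes were called higher. For pachytene spermatocytes the summed level was 8789 to 9615 CPM for wild type, against 8272 to 9370 for knock-in, with 0 of 10 genes called (Ldhc -0.14 ± 0.07 SE, Hspa2 0.14 ± 0.06). For round spermatids it was 1778 to 1981 and 1873 to 2007, with 1 of 8, Spaca4, called higher (Spaca4 0.39 ± 0.06, Tssk2 -0.04 ± 0.08, Acrbp 0.31 ± 0.07). For elongating spermatids it was 13340 to 15500 and 13030 to 15730, with 2 of 8, Prm2 and Smcp, called higher (Smcp 0.40 ± 0.07, Prm1 -0.31 ± 0.12, Prm2 0.53 ± 0.09). None of Spaca4, Prm2 and Smcp was called with the length trend removed. Spaca4 and Smcp were named after their values were seen. In these 3 germ cell lists the ranges of the genotypes overlapped. Of the 8 lists, the sums of 2 separated the genotypes, both higher in the knock-in and neither with a called gene. For peritubular myoid cells the sum was 196.7 to 227.0 against 234.7 to 269.7 CPM, with 7 of 7 genes above 0 (Acta2 0.17 ± 0.07, Myl9 0.37 ± 0.09). For spermatogonia it was 570.7 to 615.2 against 623.4 to 655.4, with 2 of 7 genes above 0 and 5 below (Dmrtb1 0.17 ± 0.07, Uchl1 -0.17 ± 0.07). Dmrtb1 made up most of that sum, with 452 CPM for wild type and 507 for knock-in. Without it, a reading added after the data were seen, the sum was 139.3 to 150.2 against 115.9 to 155.5 CPM and overlapped. Sertoli cell genes (Clu 0.12 ± 0.10, Cldn11 -0.03 ± 0.07), Leydig cell genes (Cyp17a1 0.23 ± 0.10, Insl3 0.03 ± 0.09) and macrophage genes (Csf1r 0.06 ± 0.13, Lyz2 -0.14 ± 0.16) held no called gene and overlapped in their sums. The part of cell composition in the Tcp1 value was not tested.

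The deposited annotation places 8 of the 9 genes, all but Cct6a, in the chaperonin-containing T-complex, and 7 of the 9, all but both zeta genes, on microtubules. It also places Tcp1, Cct2, Cct3, Cct4 and Cct8 in the zona pellucida receptor complex of sperm, 5 of the 8 genes so annotated in the table. The log2 fold changes of these 5 were -0.57 for Tcp1, -0.21 for Cct4, -0.10 for Cct8, 0.05 for Cct2 and 0.03 for Cct3. Only Tcp1, which was chosen for its fall, passed the edgeR test, beside 0.982% called of all genes tested.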

How the data were processed

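Per the file headers, the authors deposited whole-number counts per feature and library in 3 tables, with FPKM for mRNA genes and noncoding transcripts and RPM for circular RNAs. Their own comparison is deposited beside these as a genotype mean (FPKM, or a signal for circles), a log2 ratio, and p-values before and after adjustment. The submitters' processing notes name mm10. What aligned, counted and compared the reads, and whether strand was used, is not given here. RNA was extracted with Trizol and libraries made with a stranded total RNA kit, per the labels' protocols.

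Counts were tested between genotypes on each whole table with the quasi-likelihood F-test of edgeR 4.0.16 in R 4.3.3 (limma is 3.58.1), with TMM scaling, two-sided p-values and Benjamini-Hochberg adjustment. Genes and noncoding transcripts passed filterByExpr (minimum count 10, minimum total 15), circles needed counts in 3 libraries. Standard errors came from the F statistic and intervals are 95%. In simulated mRNA counts of 15621 genes, 86% of 1.5-fold changes were recovered, and 16 of 202 calls were false. For 8801 simulated noncoding transcripts 11% of 1.5-fold and 75% of 3-fold changes were recovered, and for 3395 simulated circles 0% and 8.33%. In each table the changed features were drawn only from those above the median abundance, so recovery of rarer ones was not measured. Implied length is counts over FPKM, scaled by library total. For the lengths of single genes per library, each library's median shift over genes was also removed. The total behind the deposited FPKM is not given, so lengths in bases hold only up to a common factor. DESeq2 1.42.0, limma on log2(FPKM + 0.1) and log2(FPKM + 1), RLE scaling, no filter, a replicate block, left-out libraries and removal of the length trend were alternatives.

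Members and gene lists were chosen with earlier results of these data known. Named genes were all members, per list those called and then the most abundant by FPKM up to 3 (2 for markers), and the 5 most like Tcp1 among genes of 10 CPM or more, passing over Gm and Rik symbols. Promoter windows are from RefSeq, GRCm38.p6, the assembly that mm10 also names.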

Additional observations from a re-analysis of the deposited data

How the results depend on the processing

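The number of mRNA genes called was 155, and 451 with DESeq2, 251 and 263 with limma on log2(FPKM + 0.1) and log2(FPKM + 1), 84 with the length trend removed and 11 to 125 without 1 library. Chaperonin genes called were 1, namely Tcp1, and 2 with DESeq2, where 1 partner (Cct4, adjusted p = 0.0281) was added, and 0 to 1 without 1 library. Without 1 library the log2 fold change ran from -0.00020 to 0.049 for Cct3, from -0.052 to 0.030 for Cct7 and from -0.21 to 1.11 for the Cct6b circle at chromosome 11 from 82736314 to 82742120, each crossing 0. Cct2 had 0.05, with 0.02 without wild-type library 2 and 0.06 without wild-type library 1 as the ends of its range. The cause was not tested. Noncoding transcripts called were 9, and 129 without a filter, 119 with DESeq2 and 6 to 15 without 1 library, and circles called were 0, and 0 to 1 without 1 library.

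With the replicate number as a block, 178 mRNA genes and 2 noncoding transcripts were called, and Tcp1 had a log2 fold change of -0.58. No label says that a number marks a shared batch. Deviations of same-numbered mRNA libraries correlated at 0.14, 0.078 and 0.032. Wild-type library 3 was closer to knock-in library 2 (0.046) than to its own number. The remaining different-numbered pairs ran from -0.12 to -0.015. These values do not settle whether a number marks a batch. No partner was called under the block.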

Other observations

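The length implied by counts over FPKM, an alternative reading added after the data were seen, gives each gene's average counted transcript as the deposited values treat it. For Tcp1 it was 2622, 2620 and 2601 bases for wild type, against 2715, 2729 and 2704 for knock-in, with no overlap. Implied lengths did not overlap for 15.6% of 11328 genes with a mean count of at least 100, and a shift as large as that of Tcp1 was found in 26.8% of them. For Mrpl18, the neighbour of Tcp1 on the other strand, it was 1304, 1329 and 1323 bases for wild type, against 1575, 1560 and 1563 for knock-in, a shift reached by 3.32% of these genes. Its counts did not differ beyond the spread of libraries. Its deposited FPKM had an authors' mean of 16.72 for wild type, against 14.38 for knock-in. The authors' deposited table gives Mrpl18 an adjusted p of 0.9525. Whether that value tested counts or FPKM is not given. For ring genes the deposited adjusted p-values lie close to those of DESeq2 on counts, so it is not read as a test of the FPKM means. Of the partners, Cct5 moved without overlap (2276 to 2304 against 2311 to 2328 bases), a shift reached by 50.1% of these genes. Cct6a ran from 1478 to 1554 bases for wild type, against 1540 to 1746 for knock-in, and its FPKM was 91.01, 95.79 and 103.32 for wild type, against 89.24, 83.66 and 79.12 for knock-in. The mean was 2344 against 2346 bases for Cct6b, 2551 against 2554 for Cct3 and 2732 against 2734 for Cct7.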
